A study of Mus musculus with 5 samples.

Results

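Some of the places in the genome where ChIP-Seq found NEUROD2 in embryonic cortex (BALB/c mice, E14.5) have no E-box at their centre. Those with a midpoint 1 to 50 kb from the closest start of a gene's longest transcript are described here. Of these, 12.5% lie within 1 kb of the start of some other annotated transcript. A region is a run of overlapping peaks from at least 2 of 3 NEUROD2 antibodies. It counts as distal when its midpoint lies more than 1 kb and at most 50 kb from the closest transcription start site (TSS), taking 1 transcript, the longest, for each gene. Of 32261 regions in all, 19911 were distal, and 2338 of these had no CANNTG sequence in the 200 bp around the midpoint. The remaining 17573 distal regions, with at least 1 such sequence, serve as the comparison. Antibody ab1 is a mouse antibody and the other 2, ab2 and ab3, are rabbit antibodies. Each gave 1 library, set against a control precipitated with a GFP antibody of the same species, so that the rabbit antibodies share a control. All libraries came from wild-type tissue pooled from several litters, so they are 3 measurements of a single condition and carry no contrast between conditions. The whole dissected cortex was used, with progenitors and neurons together, and no transcript levels were measured that would show which cells were present.

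NEUROD2 is a basic helix-loop-helix (bHLH) transcription factor of cortical projection neurons that have left the cell cycle. Factors of this family bind DNA as dimers with E proteins and contact CANNTG, the E-box, whose middle bases differ in how well each dimer reads them. Neurogenic bHLH factors favour CAGCTG as well as CAGATG (read as CATCTG on the other strand) and CATATG, called preferred E-boxes below. The same hexamers form the core of the consensus that the paper drew from the merged peaks of these libraries. The preferred forms are therefore not independent of the peaks in which they are counted below. ChIP-Seq also recovers DNA that a factor reaches without its own motif, through other DNA-bound proteins or looped chromatin, and a peak without the motif can have several origins.

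The central windows of the highest-scoring members and, for the first and the third, the closest preferred E-box outside them show what such regions look like. Members with peaks of all 3 antibodies were ranked by the sum of the 3 peak scores, and the 3 highest are printed from the GRCm38.p6 (mm10) reference. In the 200-bp centres, capitals mark hexamers that are 1 base away from CAGCTG outside the 2 middle bases, the motif of the list tested below with the largest excess over its flank in percentage points, though not in fold. In the 60-bp stretches, capitals mark the preferred E-box closest to the midpoint of the ab3 peak.
Member 1, centre, chr8:84814894-84815093, plus strand: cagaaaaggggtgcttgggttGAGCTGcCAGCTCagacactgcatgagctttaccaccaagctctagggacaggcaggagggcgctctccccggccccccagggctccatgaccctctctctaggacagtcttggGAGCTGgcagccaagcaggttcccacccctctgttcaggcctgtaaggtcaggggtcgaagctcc
Member 1, off-centre E-box, chr8:84815082-84815141, plus strand: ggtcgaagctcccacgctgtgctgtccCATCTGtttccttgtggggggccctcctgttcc
Member 2, centre, chr3:18715476-18715675, plus strand: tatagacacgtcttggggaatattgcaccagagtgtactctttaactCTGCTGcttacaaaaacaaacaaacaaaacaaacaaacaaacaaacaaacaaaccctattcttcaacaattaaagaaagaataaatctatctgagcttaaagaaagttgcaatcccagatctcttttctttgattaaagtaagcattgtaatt
Member 3, centre, chr1:160278476-160278675, plus strand: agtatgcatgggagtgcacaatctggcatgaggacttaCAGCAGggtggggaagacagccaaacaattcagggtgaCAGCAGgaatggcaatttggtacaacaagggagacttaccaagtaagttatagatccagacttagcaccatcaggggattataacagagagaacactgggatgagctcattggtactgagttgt
Member 3, off-centre E-box, chr1:160278344-160278403, plus strand: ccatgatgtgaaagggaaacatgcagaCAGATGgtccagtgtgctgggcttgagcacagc
The highest member lay 7829 bp from the TSS of Dand5, which encodes a secreted antagonist of TGF-beta family ligands, and its closest preferred E-box stood 118 bp from the midpoint. The second lay 37501 bp from a processed pseudogene, Gm30341, and its closest protein-coding TSS was that of Armc1, 447489 bp away. The third lay in an intron, 14252 bp from the TSS of the antisense gene Gm36975, with Cacybp the closest protein-coding gene. For contrast, the highest distal region with only CAGCTG among its E-boxes lay near Flrt1, a gene for a neuronal adhesion protein of the FLRT family, and carried the E-box inside the window, in capitals.
Comparison region, centre, chr19:7148319-7148518, plus strand: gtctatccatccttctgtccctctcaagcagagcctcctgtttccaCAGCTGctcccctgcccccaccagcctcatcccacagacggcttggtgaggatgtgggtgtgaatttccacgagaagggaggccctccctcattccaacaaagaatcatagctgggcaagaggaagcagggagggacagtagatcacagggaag

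The base share of E-box-free centres was low. No E-box was found in 11.7% of the 19911 distal centres (95% Wilson interval 11.3% to 12.2%), against 33% of 200-bp windows 1000 bp beyond the left end of the same regions and 33.1% beyond the right end. Among regions within 1 kb of a TSS the share was 43.3%, and among those over 50 kb from one it was 10.2%. Within the distal range it was 13.5% at up to 10 kb and 10.8% beyond. At the limits of the rule, the E-box-free regions just outside and just inside 1 kb lay 998 bp from the TSS of Zfp827 and 1002 bp from that of Gm29208. Their ab1 scores were 282 and 910, and their ab2 scores 102 and 623. At the outer limit, the last member lay 49997 bp from the TSS of Mrm3, with scores of 1002 for ab1 and 418 for ab2, and the first region outside lay 50051 bp from that of Gm43134, with 148 and 171.

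Members were wider than other distal regions, and their peak scores depended on that width. The deposited score of a peak is the −log10 p-value from MACS multiplied by 10. The ab1 scores of members ran from 50.37 to 3209 with a median of 327, the ab2 scores from 50.05 to 3100 with a median of 165, and the ab3 scores, present in 618 members, from 50.04 to 1202 with a median of 91.1. In distal regions with an E-box the medians were 282, 142 and 90.9, so that the ranges overlapped almost entirely. Scores seldom went past 3100, which 83 members reached with ab1. Median width was 1128 bp in members and 813 bp in regions with an E-box, a ratio of mean widths on the log scale of 1.33. Regions with only CAGCTG, only CAGATG or only CATATG E-boxes had median widths of 828, 805 and 797 bp and median ab1 scores of 261, 262 and 224. More peaks than antibodies had been merged in 9.20% of members and in 2.96% of regions with an E-box.

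Without regard to width, members scored slightly higher. In a linear model across all distal regions with errors clustered by chromosome, the mean log10 score of members exceeded that of regions with an E-box by 0.06 for ab1 (1.14-fold, SE 0.0091, n = 2335 members, adjusted p = 4.8e-06) and by 0.05 for ab2 (1.13-fold, SE 0.0081, n = 2335, adjusted p = 4.4e-06). For ab3 the difference was 0.03 (SE 0.015, n = 618 members) and did not pass the threshold (adjusted p = 0.094). The direction turned when the log10 width of the region was added to the model. At equal width, members scored lower by a factor of 0.727 for ab1 (n = 2335, adjusted p = 4.8e-13), 0.754 for ab2 (n = 2335, adjusted p = 8.1e-14) and 0.897 for ab3 (n = 618, adjusted p = 0.0047). In this model all 3 antibodies gave the same direction, with a mean log10 difference of -0.10 ± 0.049 (SD over the 3 antibodies). Over 3 antibodies an exact two-sided permutation of signs cannot go below p = 0.25, the value it gave here. Among regions up to 900 bp wide alone, without the width term, the ab1 and ab2 differences were negative as well (-0.06 and -0.04), and that of ab3 was 0.0086 and did not pass the threshold. The width adjustment was chosen after the widths had been seen, and width is itself an output of peak calling that moves with the score.

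**Figure D1:**
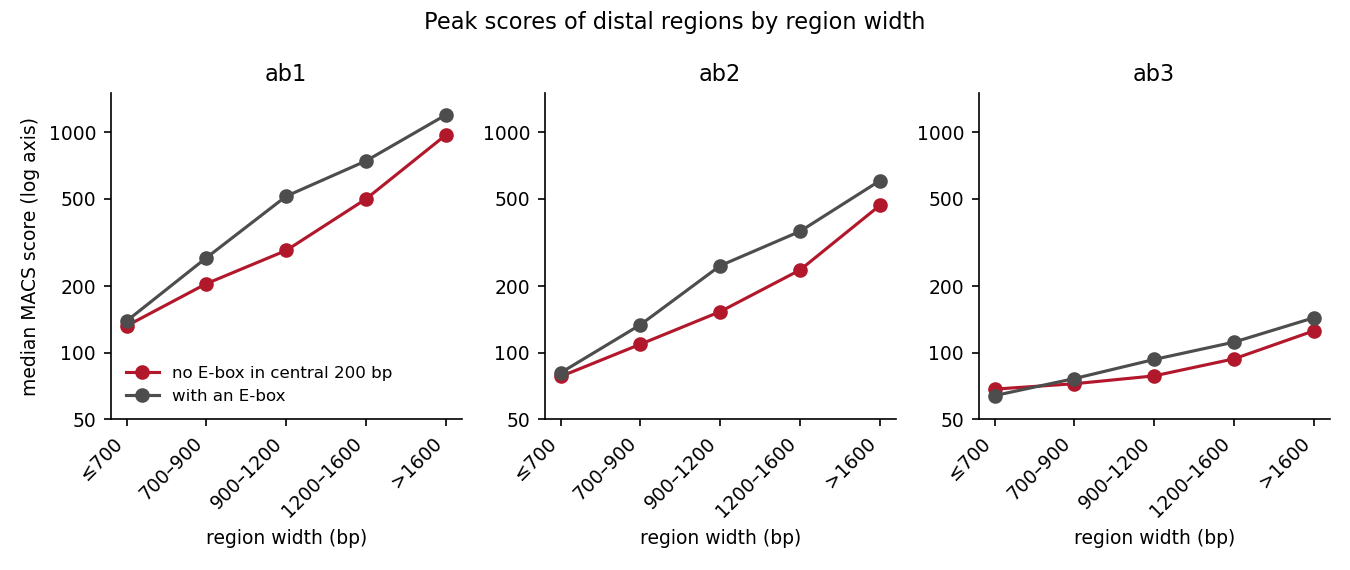
Median MACS score (log axis) of distal regions against region width in 5 classes, in 1 panel per antibody, for regions without an E-box in the central 200 bp (red) and with one (grey). From 700 bp upward the medians of E-box-free regions lie below those of regions with an E-box in all 3 panels.

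The width classes show the same order without a model. Among regions over 900 to 1200 bp wide, the median ab1 score was 291 in 668 members and 513 in 3506 regions with an E-box, the median ab2 score 154 and 248, and the median ab3 score 78.5 and 93.2. In regions up to 700 bp wide the medians nearly met, at 132 and 139 for ab1, and for ab3 the 18 members scored 68.3 against 63.9. The share of distal regions that lacked an E-box grew with width, from 4.75% at up to 700 bp to 6.46%, 16%, 23.3% and, at over 1600 bp, 27.5%. Peaks of all 3 antibodies were present in 26.2% of members and 24.1% of regions with an E-box, beside 24.4% of all distal regions and 22.2% of all regions of the series. That difference of 2.04 percentage points (SE 0.87, n = 2338 members, adjusted p = 0.036) also turned at equal width, to -9.88 points (adjusted p = 9.2e-10). It kept its sign but did not pass the threshold in 6 other settings. It was 0.21 points at a score of at least 100, 1.88 at 50% overlap, 1.83 around the highest peak and 1.27 with protein-coding starts. Central windows of 100 and 400 bp gave 1.19 and 0.84. In regions up to 900 bp wide it turned to -2.57 points and did not pass either. With the starts of all transcripts it was 3.13 and passed. Among regions over 900 to 1200 bp wide the shares were 20.4% and 38%.

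E-boxes were absent from the centre of members but crowded directly outside it. A preferred E-box lay 100 to 200 bp from the midpoint, on either side, in 1192 of 2338 members (51.0%), and in 642 (27.5%) for flank windows of the same total length 1000 bp beyond the region ends. Of the discordant members, 874 had the E-box only in this shoulder and 324 only in the flank (p = 9.4e-59, two-sided exact McNemar test over these members). Of the 10 E-box forms, 6 were also tested one at a time. Because the preferred forms among them match the paper's consensus from these peaks, their contrast with the other forms is not independent of the data. CAGATG was found in 32.5% of shoulders and 15.0% of flanks (exact McNemar test, adjusted p = 1.4e-43), CAGCTG in 21.6% and 9.67% (adjusted p = 6.5e-29), and CATATG in 7.44% and 5.09% (adjusted p = 0.0018). CAGGTG, the E-box of Snail and ZEB repressors, stood at 16.5% and 15.6% (exact test, adjusted p = 0.42), and CACGTG, the E-box of Myc and USF, at 2.99% and 2.48% (adjusted p = 0.38). CAATTG stood at 2.10% and 2.57% (exact test, adjusted p = 0.38). The shoulder share was also higher than in distal regions with an E-box, where it was 42% (interval 41.3% to 42.7%). That comparison was not made at equal width, and members were wider. Since the rule empties the centre, a stricter control is the shoulder of flank windows that hold no E-box themselves, added after the data had been seen. Over 2326 such pairs the shares were 50.9% and 29.6%, a difference of 21.3 percentage points (McNemar's exact test, p = 2.9e-48).

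**Figure D2:**
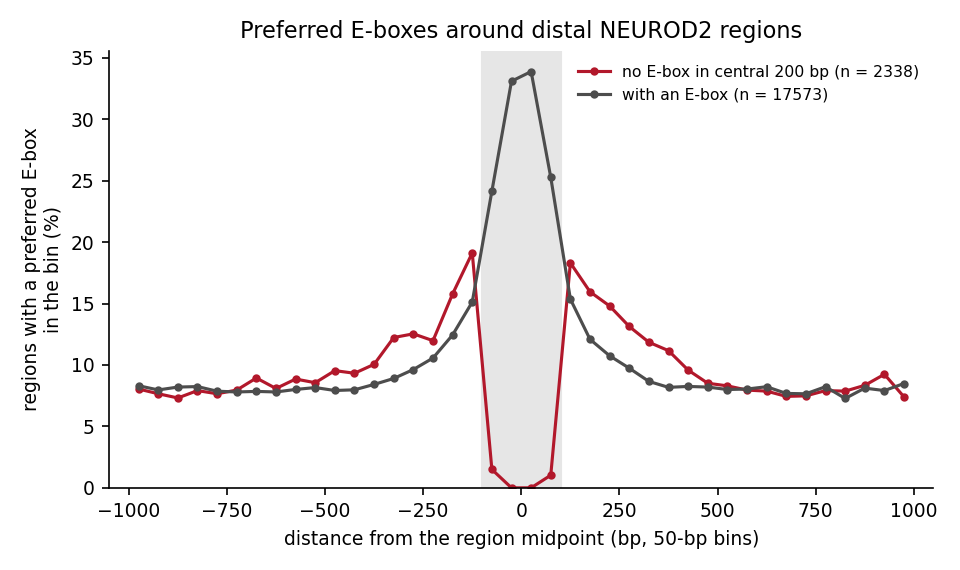
Percentage of distal regions with the middle of a preferred E-box in each 50-bp bin, against distance from the region midpoint in bp, for regions without an E-box in the central 200 bp (red, shaded window) and with one (grey). The red line is highest directly outside the window, at 19.1% and 18.3%, while the grey line peaks at the midpoint.

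Moving outward from the window on the right, the share of members with a preferred E-box in a 50-bp bin fell from 18.3% to 16%, 14.8% and 13.1%, and was 8.51% in the bin centred 475 bp from the midpoint on that side, beside 8.20% in regions with an E-box. On the left it fell from 19.1% to 15.8% and 11.98%, was 12.5% in the next bin, and at 475 bp stood at 9.54% beside 7.92% in regions with an E-box. The few E-boxes in the outermost bins inside the window, in 1.5% and 1.03% of members, cross its edge. The median distance from the midpoint to the closest preferred E-box within 2000 bp was 186 bp (quartiles 132 and 315 bp), and 72.8% of members had one within 300 bp. Counted over the entire region, 2037 of 2338 members (87.1%, interval 85.7% to 88.4%) held at least 1 preferred E-box, with a median of 2. A window as wide as the region, 1000 bp beyond its left end, held one in 83.0% against 87.2% of 2337 pairs. The rule empties the centre of the region and not that of the window, which lowers the region's share, so the pair is given without a test.

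The E-boxes were also counted around the midpoint of each antibody's own peak. In members, the midpoints of ab1 and ab2 peaks lay a median of 28 and 26 bp from the region midpoint, and that of the ab3 peak 167 bp. A preferred E-box stood within 100 bp of the peak midpoint in 18.4% of 2335 ab1 peaks, 18% of 2335 ab2 peaks and 59.1% of 618 ab3 peaks (interval 55.1% to 62.9%). The low values for ab1 and ab2 follow in part from the rule, because their peaks nearly share the emptied centre. To allow for this, each peak midpoint was compared with its mirror position on the other side of the region midpoint, which overlaps the emptied window to the same extent. For ab3 the mirror position held a preferred E-box in 32.2% of members, with 234 discordant members in favour of the peak and 68 in favour of the mirror (McNemar's exact test, adjusted p = 3.4e-22). For ab1 the shares were 18.4% and 14.8% (exact test, adjusted p = 0.00034) and for ab2 18% and 14.9% (adjusted p = 0.0018). Where the ab3 peak lay over 200 bp from the region midpoint, 207 of 269 (77.0%) had a preferred E-box at the ab3 midpoint and 125 (46.5%) at the mirror position. In the 213 members with an ab3 peak under 100 bp from the midpoint the shares were 27.2% and 16%. An excess over the mirror position was also present in distal regions with an E-box, with 82.8% against 66.9% for ab3 (1011 against 332 discordant, exact test, adjusted p = 3.6e-79) and 78.5% against 74.4% for ab1, so it was not particular to members. This comparison was added after the shares per antibody had been seen.

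**Figure D3:**
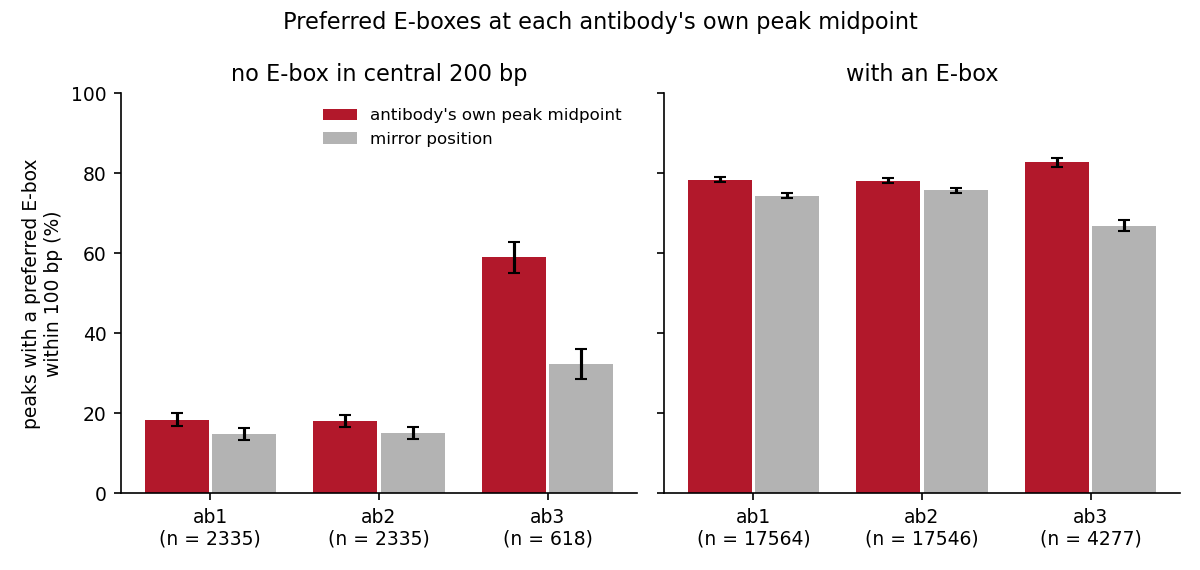
Percentage of peaks with a preferred E-box within 100 bp of the antibody's own peak midpoint (red) and of its mirror position about the region midpoint (grey), for distal regions without (left) and with (right) an E-box in the centre, with 95% Wilson intervals as error bars. In the left panel ab3 stands at 59.1% against 32.2% at the mirror position, while ab1 and ab2 are below 20%.

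Not every member carried an E-box at the midpoint of some peak. Around the midpoint of the highest-scoring peak, 1692 members (72.4%) still had no CANNTG within 100 bp, and 393 (16.8%) had a preferred E-box there. In 1018 members (43.5%) no antibody's own peak had an E-box within 100 bp of its midpoint. These had lower scores than the remaining 1320 members, with median ab1 scores of 245 and 438, narrower regions of 1003 and 1208 bp, and peaks of all 3 antibodies in 11.9% and 37.2%. Their mean GC content was 54.4% against 50.3%, and 38.8% of them still had a preferred E-box in the shoulder. No test was made of these differences, since the number and width of the peaks enter the definition.

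In 301 members (12.9%) the entire region had no preferred E-box, and in 39 no CANNTG at all. The 301 had a median width of 811 bp and median scores of 178 (ab1), 105 (ab2) and 75.4 (ab3), against 1173 bp and 358, 182 and 92.6 in the other members. Peaks of all 3 antibodies were present in 39 of them (13.0%) and in 28.1% of the others. A wider region has more room for an E-box, so this contrast was not tested. The 2 highest of the 301 are printed because they show different kinds of sequence, with capitals as in the centres above.
Highest member without a preferred E-box, chr6:126585964-126586163, plus strand: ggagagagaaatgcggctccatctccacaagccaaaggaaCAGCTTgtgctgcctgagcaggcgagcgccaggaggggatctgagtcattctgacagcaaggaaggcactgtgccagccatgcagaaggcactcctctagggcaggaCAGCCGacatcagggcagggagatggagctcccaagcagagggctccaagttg
Next member without a preferred E-box, chr3:67504706-67504905, plus strand: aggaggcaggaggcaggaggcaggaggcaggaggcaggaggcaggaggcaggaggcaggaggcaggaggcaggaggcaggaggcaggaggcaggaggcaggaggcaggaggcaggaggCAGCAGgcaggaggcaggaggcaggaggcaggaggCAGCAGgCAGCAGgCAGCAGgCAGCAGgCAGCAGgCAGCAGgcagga
The first, 1231 bp wide, scored 3100 with ab1, 2153 with ab2 and 285 with ab3 and lay 29895 bp from the TSS of the lincRNA gene Gm45869, with the potassium channel gene Kcna5 as the closest protein-coding gene. The second, in an intron 10717 bp from the TSS of Rarres1, scored 1790, 883 and 342. Its centre is a tandem array of a short G-rich unit and is marked as repeat in the reference over 100% of its length. Of the next 3 regions in this order, those closest to Gm36980 and Gm11949 were marked as repeat over 66% and 89% of the window, and that closest to Gm43629 over 9.5%. Over 50% of the window was repeat in 5.60% of members and 2.54% of regions with an E-box (linear model, n = 2338 members, adjusted p = 3.4e-06 over 17 shares compared). Whether reads were placed correctly in such repeats was not tested.

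A list of 27 motifs, 25 of them of other factors and 2 simple repeats, and the near forms of the 3 preferred E-boxes were counted on both strands in the centres of 2326 members and in a flank window without an E-box of the same region. The list was chosen with earlier results of these data known. Of the 30 motifs, 11 (36.7%) were more frequent in the centre and 6 (20%) less frequent. Hexamers 1 base away from CAGCTG were in 69.4% of centres and 49.1% of flanks (McNemar's exact test, adjusted p = 7.4e-44), and those 1 base away from CAGATG in 79.1% and 74.5% (adjusted p = 0.00056). Near forms of CATATG were less frequent, at 25.8% and 34.05% (exact test, adjusted p = 4.5e-09). Near forms of CAGCTG were in 69.2% of the centres of all 32261 regions and in 68.8% of distal centres with an E-box. Their share in members exceeded the latter by 0.59 percentage points (linear model, SE 1.3, n = 2338 members, adjusted p = 0.73). Counting only matches that share no base with a CANNTG, the share in regions with an E-box was 66.0%. The difference was then 3.37 points and did not pass the threshold (linear model, SE 1.3, n = 2338 members, adjusted p = 0.085).

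Among motifs of other factors, the GC box GGGCGG, bound by Sp and Klf factors, was in 12.2% of centres and 3.40% of flanks (exact test, adjusted p = 4.8e-29). The nuclear factor I core TTGGCA was in 15.4% and 8.34% (exact test, adjusted p = 8.5e-13), and the MEIS core TGACAG in 18.7% and 12.6% (adjusted p = 9.4e-08). The EBF core CCCNNGGGA, the homeodomain core TAATTA and the T-box core GGTGTGA were in 4.60%, 7.65% and 4.30% of centres and 2.58%, 5.63% and 2.54% of flanks. The NRF1 core, the CTCF core and the cAMP response element TGACGTCA were rare but more frequent in centres, with 25, 17 and 13 of 2326 centres against 1, 3 and 1 flanks. The call of the cAMP response element was lost with the first flank on the left (0.39 percentage points), and its difference was 0 among regions of all 3 antibodies. Less frequent in centres were the MEF2 core CTANNNNTA (13.9% and 23.5%, exact test, adjusted p = 9.2e-16), the nuclear receptor core AGGTCA (6.88% and 11.4%), the Sox site ACAAAG or ACAATG (21.5% and 26.3%), the GATA site AGATAA (8.13% and 11.9%) and the TCF/LEF site TCAAAG (11.8% and 14.7%). In the centres of all regions of the series these shares were 12.2% for the GC box, 20.2% for TTGGCA, 24.8% for TGACAG, 12.3% for the MEF2 core and 6.46% for AGGTCA. A match is a string of letters, and occupancy by these factors was not measured. The pattern CTANNNNTA leaves 4 bases open and is looser than a MEF2 site. Flanks were not matched for base composition, with a mean GC content of 45.1% against 52.1% in the centres. How far this entered the differences for GC-rich and AT-rich motifs was not tested. Among regions of all 3 antibodies alone (611 pairs), McNemar's exact test called 2 motifs more frequent, the near forms of CAGCTG and of CAGATG, and 0 less frequent, with 5 and 4 at an unadjusted p under 0.05. Some of the differences that lost their call became smaller there, such as the GC box (2.62 percentage points, against 8.77 over all members) and the nuclear factor I core (3.11 points). Others stayed about as large or larger, among them the Sox site (-4.42 points), the GATA site (-4.75), the TCF/LEF site (-3.76) and the T-box core (2.45).

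**Figure D4:**
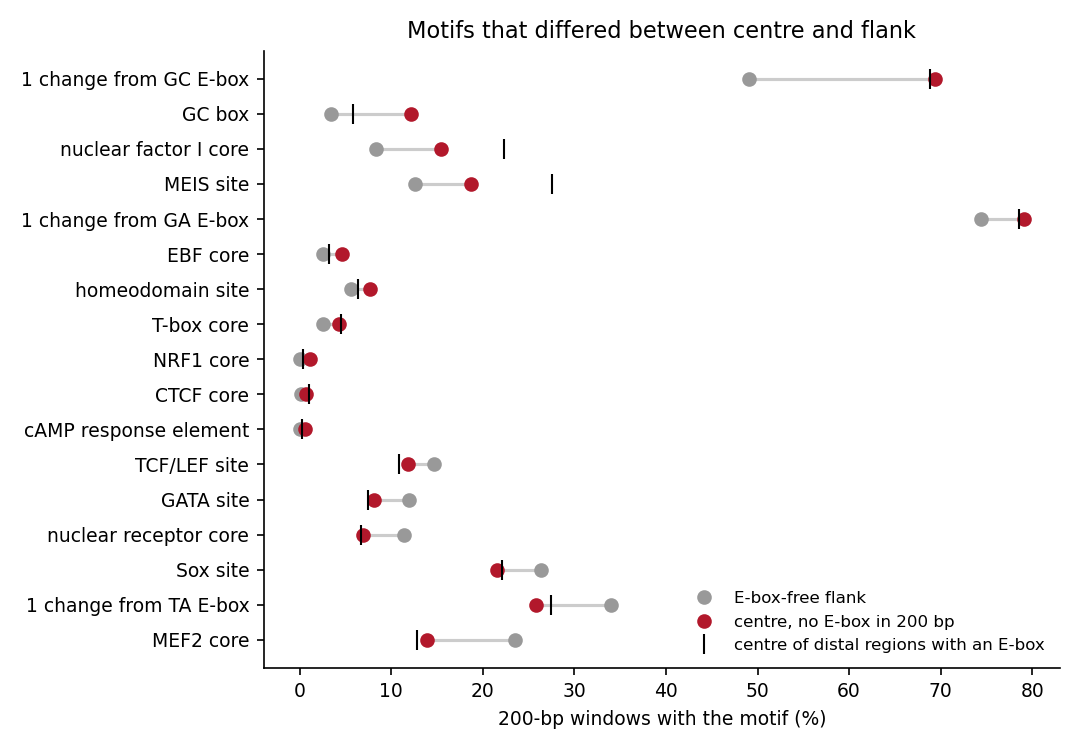
Percentage of 200-bp windows with each of the 17 motifs that differed between the centre of E-box-free distal regions (red) and their E-box-free flank (grey), ordered by the difference, with the centres of distal regions with an E-box as black ticks. For the nuclear factor I and MEIS cores the red point lies between the flank and the tick, and for the GC box it lies to the right of both.

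Compared with distal centres that held an E-box, 4 of the 30 motifs (13.3%) were more frequent in members and 5 (16.7%) less frequent. The GC box was in 12.1% of members and 5.83% of regions with an E-box (linear model, n = 2338 members, adjusted p = 7.0e-06), and the NRF1 core, the EBF core and the GA repeat GAGAGAGA were also more frequent, at 1.07%, 4.62% and 5.05% against 0.37%, 3.23% and 2.91%. The MEIS core was in 18.6% of members and 27.6% of regions with an E-box (n = 2338 members, adjusted p = 8.0e-08), and the nuclear factor I core in 15.4% and 22.4% (adjusted p = 7.3e-07). The AP-1 site TGANTCA (3.98% and 6%), the POU octamer ATGCAAAT (0.64% and 1.84%) and the RFX core GTTNCCAT (3.12% and 4.45%) were less frequent as well. All 5 can share letters with an E-box, as TGACAG does with CAGATG. When only matches that share no base with a CANNTG were counted, the MEIS core fell to 20.3% in regions with an E-box and the difference of -1.65 percentage points (SE 0.77, n = 2338 members) no longer passed the threshold (adjusted p = 0.10). The AP-1, POU and RFX differences were lost too, with adjusted p = 0.10, 0.24 and 1.00 (n = 2338 members). For the nuclear factor I core a difference of -2.78 points remained (SE 0.88, n = 2338 members, adjusted p = 0.030), with 18.2% in regions with an E-box.

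Over all hexamers other than CANNTG, 581 (28.1% of those tested) were more frequent in the centre of members than in the flank and 581 (28.1%) less frequent. Base composition moved with this split. Mean GC content was 52.1% in the centres and 45.1% in the flanks, and of 228 hexamers with at least 5 G or C bases 225 were more frequent and 0 less frequent. The leading hexamer was CAGCAG, in 32.8% of centres and 16.4% of flanks (exact test, adjusted p = 4.1e-36), itself 1 base away from CAGCTG. It was followed by GCAGCC (25.8% and 12.1%), AGCAGC (25.6% and 12.9%), GCTGCC (22.8% and 10.5%), CTGCCA (24.4% and 12.9%) and CTGGCA (23.6% and 12.5%). The next were AGCAGG and CCCTGC, then GCAGCA and CTGCTC, all between 22.4% and 26.9% of centres. In distal centres with an E-box, 7 of these 10 had a higher share than in members, among them CTGCCA (34.8%) and CAGCAG (36.4%). The other 3 had a lower one, GCAGCC with 23.7%, CCCTGC with 20.3% and AGCAGG with 26.4%. These shares were not tested against each other. The 10 most depleted were A- and T-rich, led by AAGAAA (19% and 30.8%), TTAAAA (13.9% and 25.2%), AAAATA (12.9% and 24.1%) and ATAAAA (11.3% and 22.3%). Without ab1 or without ab2 the counts fell to 42 and 34 more frequent and 60 and 21 less frequent hexamers, in 545 and 576 members.

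GC content and nearby minor transcript starts set some members apart. Mean GC content of the central window was 52.1% ± 9.71 (SD over 2338 regions) in members and 50.1% ± 7.07 in regions with an E-box, a difference of 1.94 percentage points (SE 0.24, n = 2338 members, adjusted p = 2.9e-07) that had the same sign on 20 of 20 chromosomes. The spread was wider at both ends, with 17.4% of members against 7.77% at 60% GC or more, and 9.75% against 7.15% under 40%. By E-box form, mean GC content was 53.3% with only CAGCTG, 49.4% with only CAGATG and 45.6% with only CATATG. The first of these had 16.1% at 60% GC or more, and the last 19.5% under 40%. High GC content was thus not particular to members. The GC difference was near 0 among regions of all 3 antibodies (0.012 points) and among regions rebuilt without ab1 (-0.0057 points) or without ab2 (0.045 points). It also lost its call with a central window of 100 bp (0.054 points), whereas with 400 bp it was 6.50 points and with protein-coding starts 2.95. Smaller differences that passed were 0.70 points with the starts of all transcripts, 1.01 at equal width and 1.04 at a score of at least 100.

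Although every member lay over 1 kb from the TSS of the longest transcript of each gene, 12.5% lay within 1 kb of the start of some other annotated transcript, against 5.10% of regions with an E-box and 5.98% of all distal regions. The difference of 7.43 percentage points (SE 0.65, n = 2338 members, adjusted p = 2.0e-09) was positive on 20 of 20 chromosomes and was 5.26 points at equal width (adjusted p = 2.5e-08). It was smaller among regions of all 3 antibodies (2.69 points, SE 1.3) and without ab1 (2.23 points, SE 1.2), where it did not pass the threshold, and without ab2 (3.54 points), where it did. It passed as well with central windows of 400 and 100 bp (16.9 and 3.91 points), with protein-coding starts (11.9 points) and in regions up to 900 bp wide (3.01 points). The share rose with GC content, from 3.61% of members at up to 45% GC to 39.7% (152 of 383, interval 34.9% to 44.7%) at over 60%, and in regions with an E-box from 2.12% to 22.3%. Peaks of all 3 antibodies were present in 17.0% of the most GC-rich members and 24.3% of equally GC-rich regions with an E-box. At up to 45% GC the shares were 29.6% and 21.5%. Members were wider in both classes, with median widths of 1192 against 975 bp and of 1108 against 773 bp. These last shares are given without a test and not at equal width.

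**Figure D5:**
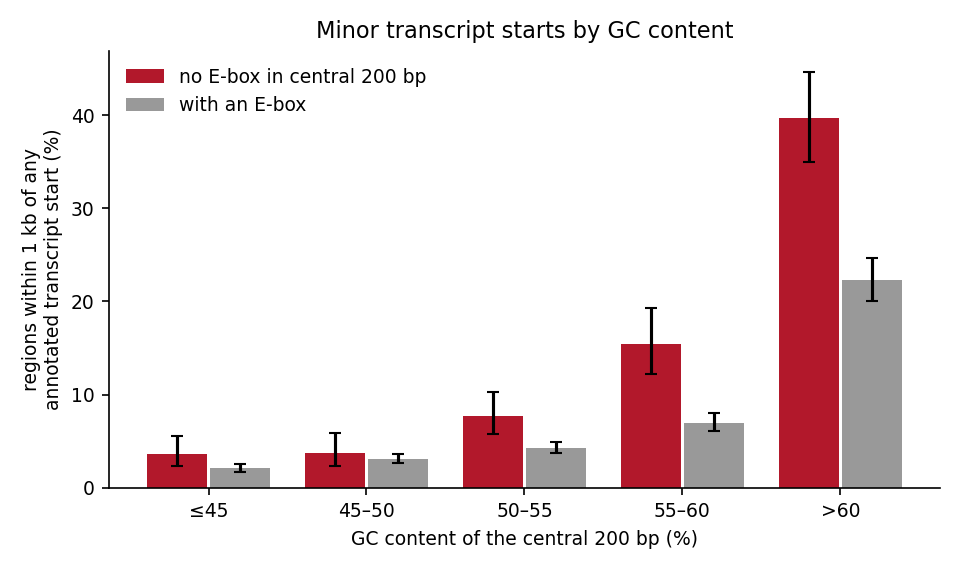
Percentage of distal regions within 1 kb of the start of any annotated transcript, by GC content of the central 200 bp in 5 classes, for regions without (red) and with (grey) an E-box in the centre, with 95% Wilson intervals. Among regions over 60% GC the share is 39.7% without and 22.3% with an E-box.

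Members lay in introns of the longest transcripts in 56.6% of cases, in exons in 5.90% and between genes in 37.5%, against 53.5%, 4.82% and 41.6% of regions with an E-box. Of these differences that for introns (n = 2338 members, adjusted p = 0.0048) and that between genes (adjusted p = 0.0030) passed the threshold. The closest gene was protein-coding for 38.1% of members and 33.8% of regions with an E-box (n = 2338 members, adjusted p = 0.0020). Regions with only CAGCTG E-boxes were close to members, at 56.5% in introns, 37.3% between genes and 39.1% closest to a protein-coding gene. With only CAGATG these shares were 51.6%, 43.4% and 33.2%, and with only CATATG 54.2%, 43.2% and 27.7%. The shares of members were thus not particular to them. Another region of the series lay within 5 kb in 40.8% and 35.6% (n = 2338 members, adjusted p = 2.8e-05).

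By the closest protein-coding TSS, members were assigned to 1826 of the 7093 genes with a distal region, 1459 of them with 1 member and 14 with 5 or more. Genes in this paragraph were named by their count of members, which favours genes with many distal regions. Among them the share of distal regions without an E-box ran from 13.0% at Zfp608 to 38.5% at Aldh1b1 and Dnajc15. Over all distal regions it was 11.7%. The 50-kb limit holds for the closest TSS of any gene, coding or not, so the protein-coding gene named for a member can lie much farther away. Nfib, a nuclear factor I gene needed for cortical and callosal development, had the most, with 8 of its 23 distal regions. They lay 5760 to 478145 bp from its TSS. None of these 8 had an ab3 peak, their ab1 scores ran from 81.8 to 1017 with a median of 352, and 4 lay within introns. Auts2, a neurodevelopmental disease gene whose product acts on chromatin and the cytoskeleton, had 7 of 32 at 1016 to 614434 bp. The highest of them scored 3100 for ab1, 1944 for ab2 and 422 for ab3. The closest, 3656 bp wide, covered the TSS itself, with its midpoint in an exon and 76 bp from another annotated start. Galnt17, a glycosyltransferase gene next to Auts2, had 7 of 39 at 1284 to 414805 bp, the closest of them 298 bp from another annotated start. Zfp608 had 7 of 54 at 4768 to 567008 bp. Myt1l, a zinc finger repressor of non-neuronal genes, had 6 of 19 at 114681 to 237349 bp, with ab1 scores from 238 to 3100 and 3 members bound by all antibodies. Med13l, a Mediator gene, had 6 of 19 at 9542 to 501719 bp. Aldh1b1 and Dnajc15 had 5 of 13 each, at 27181 to 126423 bp and at 135957 to 297235 bp, and Igsf21 had 5 of 32 at 2263 to 196849 bp.

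Gene lists for the embryonic cortex were described by the share of their distal regions without an E-box, beside 11.7% over all distal regions. No test was made, and the lists were chosen with earlier results known. Among nuclear factor I, SoxC, Myt1 and Ebf genes the share was 31 of 142 (21.8%, interval 15.8% to 29.3%), with Nfib, Myt1l and Sox4 (4 of 21) leading, the last at 129409 to 235342 bp. In the Reelin pathway, which guides the layering of cortical neurons, it was 12 of 67 (17.9%, interval 10.6% to 28.7%). Rapgef1 had 4 of 13 at 27003 to 123871 bp from its TSS, the kinase gene Fyn 2 of 11 at 78035 and 102079 bp, and Dab1 1 of 6 at 303046 bp. Genes of layer identity had 17 of 130 (13.1%, interval 8.33% to 19.9%). They were led by Mef2c, an activity-regulated factor, with 5 of 17 at 32977 to 240901 bp, of which the highest scored 1167 for ab1, 705 for ab2 and 100.2 for ab3. The upper-layer genes Cux1 and Cux2 had 2 of 6 and 2 of 4, at 55608 and 79921 bp and at 4402 and 67954 bp.

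The other 4 lists had shares from 8.46% to 11.9%. The interval of each of them, like those of the Reelin and layer lists, includes the 11.7% of all distal regions. Axon guidance genes had 37 of 346 (10.7%), with 3 of 26 assigned to Efnb2 at 39898 to 1220797 bp, 2 of 5 to Efnb1 at 11274 and 29020 bp and 2 of 2 to Ephb3 at 6451 and 85028 bp. Radial glia and progenitor genes had 10 of 109 (9.17%), with 2 each for Emx2 (11908 and 239376 bp), Mki67 (78440 and 244829 bp) and Notch1 (2979 and 37340 bp). Genes of subpallial and interneuron identity had 5 of 42 (11.9%), of which 3 were assigned to Nr2f2 at 5162 to 475720 bp, 1 to Calb2 at 9524 bp and 1 to Lhx8 at 120267 bp. Genes of neuronal bHLH, E and Id proteins had 11 of 130 (8.46%). Both members at Neurod2 itself were bound by all 3 antibodies. The one 10421 bp from its TSS, 5592 bp wide, scored 3100 for ab1, 3100 for ab2 and 282 for ab3, with a preferred E-box 182 bp from the midpoint. The other, 45422 bp away, scored 1323, 548 and 124. At Neurod6, a close relative in the same neurons, the 2 members, up to 100961 bp away, scored 1240 and 2322 for ab1, 1129 and 1305 for ab2 and 116 and 86.2 for ab3. Bhlhe23 had 1 of 4.

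The remaining members among the 8 highest lay closest to Kcnq3, a potassium channel gene, with Kcnq3 also the closest coding gene, to the lincRNA genes G930045G22Rik (closest coding gene Npvf) and Gm11750 (Rbfox3, which encodes the neuronal marker NeuN), to the zinc transporter gene Slc39a11 and to Gm37519 (Sdccag8). All 8 had an ab1 score of 3100 and ab3 scores between 791 and 1202. Each held at least 2 preferred E-boxes in the region, the closest of them 108 to 309 bp from the midpoint, and in 5 of the 8 one stood within 100 bp of the ab3 midpoint.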

How the data were processed

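Peaks of 3 NEUROD2 libraries from E14.5 cortex, 1 per antibody, were used. Per the labels and the study's methods, the authors aligned single-end reads with Bowtie, removed duplicates, and called peaks per antibody with MACS, using as control the GFP precipitate of matching host. The deposited score of each peak is 10 times the −log10 p-value of the caller, not scaled between libraries. Its lowest value was 50. The deposited lists hold 51841, 35310 and 7470 peaks for ab1, ab2 and ab3. Read depth was not used here, so intervals cover counting error only.

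Peaks sharing at least 1 bp were merged, and regions with at least 2 antibodies on chromosomes 1 to 19, X and Y were kept. Each antibody's score in a region was that of its highest peak. Sequence came from the RefSeq copy of GRCm38.p6 (mm10) and transcripts from GENCODE M21 (141730 transcripts of 55413 genes). BALB/c variants that make or break a motif could not be seen in this reference. Members and E-box-bearing distal regions were compared by linear models across all distal regions with errors clustered by chromosome, adjusted over 6 differences after Benjamini and Hochberg at 0.05. Regions are not replicates of a condition, and p-values describe differences between sets of regions. Centre and flank were compared by McNemar's exact test, two-sided. For motifs and hexamers the flank was the first 200-bp window without CANNTG beyond 1000 bp from the region ends, among up to 20 windows and outside other regions, found for 2326 members. Named genes were the closest gene and closest protein-coding gene of the 8 members with the highest summed score among those with all 3 antibodies, the 10 protein-coding genes with the most members and the 3 with the most in each gene list. Ties were broken by symbol. Map1b, Pmfbp1 and Zfp536, also with 5 members, were left out for this reason, and some genes named from the lists, such as Dab1, were tied with others. A gene that this rule names and a stretch of sequence are not reported here. The genes at the distance limits and of the 5 highest members without a preferred E-box, and the sequences shown for off-centre E-boxes, for 2 of those members and for the comparison region, were chosen after their values were seen. The members, gene lists and motif list were chosen with earlier results of these data known. Alternatives were a score of at least 100, an overlap of 50% of the shorter peak, all 3 antibodies, the midpoint of the highest peak, each antibody left out, other sets of transcripts, central windows of 100 and 400 bp, other flanks, and GC and distance as covariates. Region width as a covariate, regions up to 900 bp wide and shoulders of E-box-free flanks were added after the data had been seen. Calculations used pandas 2.3.3, statsmodels 0.14.6, scipy 1.17.1, pysam 0.24.0, numpy 2.4.6 and matplotlib 3.10.9 under Python 3.11.15 and were tested on simulated data.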

Additional observations from a re-analysis of the deposited data

How the results depend on the processing

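The preferred E-box excess in the shoulder kept its direction and passed the test under every alternative run, between 9.65 percentage points with a central window of 400 bp and 30.4 with 100 bp. The shoulder is always the 100 bp directly outside the central window, so it moved with the window in these settings. The rule itself moved the counts most. Central windows of 100 and 400 bp gave 6342 and 508 members (31.9% and 2.55% of distal regions), all 3 antibodies about 6.1e2 (12.6%), protein-coding starts 1517 (13.0%), a score of at least 100 a share of 12.5%, and starts of all transcripts 10.9%. Leaving out 1 antibody gave 545 to 2333 members (11.2% to 11.7%).

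Score and antibody differences depended on width. With region width as a covariate the differences were -9.88 percentage points for all 3 antibodies and -0.14, -0.12 and -0.047 (log10) for ab1, ab2 and ab3. In regions up to 900 bp wide they were -2.57 (not past the threshold), -0.058 and -0.038 for the first 3 of these, and 0.0086 for ab3, which did not turn. The share with all 3 antibodies no longer passed the threshold at a score of at least 100 (0.21), 50% overlap (1.88), the highest peak's midpoint (1.83), protein-coding starts (1.27) and windows of 100 and 400 bp (1.19 and 0.84). In the 400-bp window the ab1 and ab2 score differences (0.030 and 0.032) did not pass either. The ab3 score difference passed at a score of at least 100 (0.047), with protein-coding starts (0.056) and in the 100-bp window (0.020). With 1 antibody left out it was 0.022 to 0.028, and it passed without ab2 (0.028) and not without ab1.

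The GC difference was 0.012 percentage points with all 3 antibodies and 0.054 in the 100-bp window, and -0.0057 to 1.90 with 1 antibody left out, and in the other settings it passed with 0.70 to 6.50 points. The excess near other transcript starts was 2.69 points with all 3 antibodies and 2.23 to 7.35 with 1 antibody left out, and in the other settings it passed with 3.01 to 16.9 points. Hexamers more and less frequent in the centre numbered 40 and 33 with all 3 antibodies, 34 to 589 and 21 to 573 with 1 antibody left out, and 375 were less frequent at a score of at least 100. Motifs of the list numbered 2 and 0 with all 3 antibodies. Of the 17 motifs called, the cAMP response element lost its call with the first flank on the left (0.39 points), and all 17 kept theirs with the flank at 2000 bp. The motifs more and less frequent numbered 13 and 7 with that flank and 12 and 7 with the first on the left, against 11 and 6. The causes were not tested, other than that settings needing ab3 keep fewer regions. Of the alternative values of the main comparisons, 97 kept direction and side of the threshold or, for counts and shares, stayed near the main value. Of the others, 22 counts or shares moved, 13 differences lost their call, 4 gained one and 8 turned in direction.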
